A study of Homo sapiens with 7 samples.

Results

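The 7 genes described here make, store, take back, oxidise or sense dopamine, and open chromatin around them was examined in LUHMES neurons: GCH1, TH, DDC, ALDH1A1, SLC18A2, SLC6A3 and DRD2. They are 7 of the 19974 protein-coding genes placed on the chromosomes analysed, and were chosen by their role in the pathway. A region was assigned to a gene where it touched the gene body or the 50 kb on either side on hg38, which gave 430 of 792140 deposited regions over 7 libraries. LUHMES is a human fetal mesencephalic cell line whose immortalising transgene is shut off by tetracycline, and the labels call its differentiated cells dopaminergic neurons. All cells carried the genotype labelled WT and had been differentiated for 6 days in N-2 medium that held dbcAMP, GDNF and tetracycline. Stressed cells (4 libraries, differentiations 6, 7, 8 and 9) then received 25 µM antimycin A, an inhibitor of respiratory complex III, with 10 µM oligomycin, an inhibitor of ATP synthase, for 8 h. Vehicle cells (3 libraries, differentiations 6, 7 and 8) received DMSO. Each library was assayed by ATAC-seq, in which Tn5 transposase cuts accessible DNA, and the submitters describe the differentiations as independent batches.

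Dopamine is made from tyrosine by tyrosine hydroxylase, the rate-limiting enzyme, and then by DOPA decarboxylase. Tyrosine hydroxylase needs tetrahydrobiopterin, whose synthesis starts with GTP cyclohydrolase. The vesicular monoamine transporter loads dopamine into synaptic vesicles, the dopamine transporter takes it back from the synapse, and D2 autoreceptors restrain its release. Promoters with many CG dinucleotides are commonly accessible in most cell types, whereas CG-poor promoters are more often open only in the cells that use them.

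The equal-size lists hold the 32828 strongest regions of each library by the authors' −log10 p, which is the length of the shortest deposited list (vehicle 7). The libraries differ in what they could detect. Deposited lists held 53063 to 248900 regions in stressed libraries and 32828 to 159902 regions in vehicle libraries. The weakest region listed had a summit pileup over background, here called enrichment, of 2.34 to 6.13 in stressed libraries and 4.19 to 8.18 in vehicle libraries. A region of low enrichment could therefore be listed in stressed 7 and be out of reach in vehicle 6 or vehicle 7, so absence from a deposited list means not detectable at that depth. Median widths in the equal-size lists were 484 to 1450 bp in stressed libraries and 319 to 868 bp in vehicle libraries. In these bulk libraries, fewer cells with an open site and less accessibility per cell cannot be told apart. Across all protein-coding genes, the equal-size lists held a region within 1 kb of a gene end for 12464 ± 383 genes in stressed libraries and 11203 ± 513 genes in vehicle libraries (SD, n = 4 and 3).

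The labelled cell type was checked by regions within 1 kb of either end of marker genes. Of 7 dopaminergic transcription factors, 4 ± 0 had one in stressed equal-size lists and 4.33 ± 1.53 in vehicle lists (SD, n = 4 and 3). NR4A2, PITX3 and EN1 had one in all 7 libraries and LMX1B in none. Of 10 markers of all neurons, 9 ± 0 had one in stressed libraries and 8.33 ± 1.15 in vehicle libraries. Lists of other cells also held open gene ends, at 2.25 ± 0.5 and 1.33 ± 0.577 of 3 serotonergic markers in stressed and vehicle libraries. They were at 3.25 ± 0.957 and 4 ± 0 of 5 glutamatergic and GABAergic markers, and at 3.5 ± 0.577 and 2 ± 1.73 of 5 progenitor markers. The counts were 3.5 ± 1.29 and 2.33 ± 1.53 of 8 glial markers, and 3.75 ± 0.5 in stressed (3 to 4) and 1.67 ± 0.577 in vehicle libraries (1 to 2) of 6 mesenchymal and endothelial markers. Of these markers of other cells, TPH2, SLC17A7, SLC32A1, OLIG2 and TWIST1 had a gene-end region in all 7 equal-size lists, and GFAP, SOX10, S100B, GAD1, HES5, COL1A2 and PECAM1 had none in any. The neuronal marker RBFOX3 also had none. The mesenchymal and endothelial count did not overlap between the treatments, and its part in the results below was not tested. Counts over all protein-coding genes did not overlap either, at 12082 to 12979 in stressed and 10774 to 11772 in vehicle equal-size lists.

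Of the 7 dopamine genes, GCH1, SLC6A3 and DRD2 had a gene-end region in the equal-size lists, and TH, DDC, SLC18A2 and ALDH1A1 had none in any library. Of all protein-coding genes, 70.4% had a gene-end region in at least 1 equal-size list and 46.5% had one in all 7. The number of dopamine genes with one was 3 in each of the 4 stressed libraries and 2, 3 and 3 in vehicle 6, 7 and 8, a mean of 3 ± 0 against 2.67 ± 0.577. In the deposited lists it was 5, 6, 5 and 4 in stressed 6, 7, 8 and 9, and 3, 3 and 4 in vehicle 6, 7 and 8 (5 ± 0.816 against 3.33 ± 0.577). There, 84.0% of all genes had a gene-end region in at least 1 library, and ALDH1A1 alone of the 7 had none. GCH1, SLC6A3 and DRD2 had one in all 7 deposited lists, as 49.8% of genes did.

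**Figure D1:**
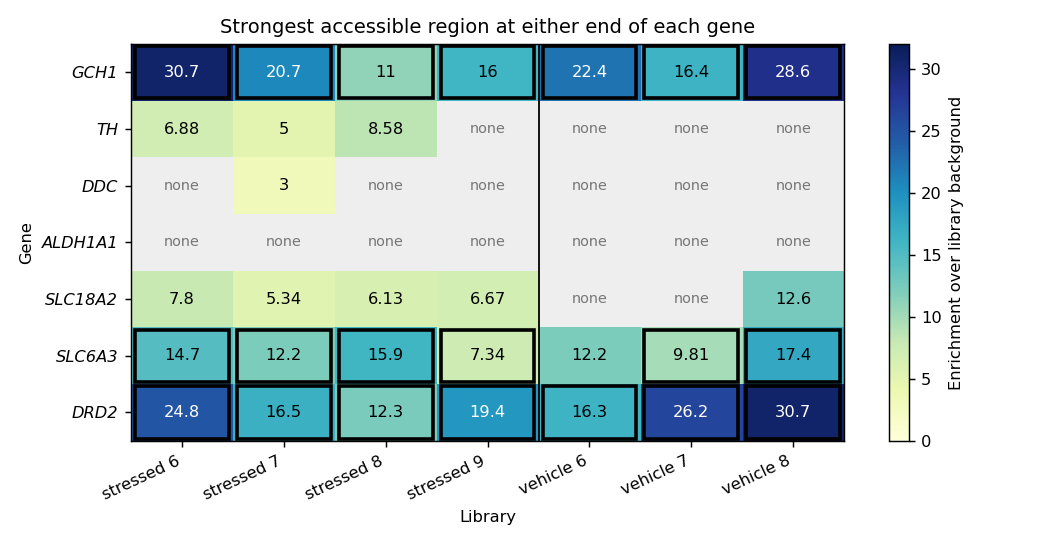
Enrichment of the strongest region within 1 kb of either gene end, for each of the 7 genes (down the page) in each library (stressed left, vehicle right). Colour and number give the enrichment in the deposited list, a black frame marks a region in the equal-size list, and grey cells have none: GCH1 and DRD2 are framed in all 7 libraries, SLC6A3 in 6, and ALDH1A1 is grey throughout.

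GCH1 encodes GTP cyclohydrolase (chr14:54842017-54902826). The gene lies on the minus strand, as do TH, DDC, SLC6A3, ALDH1A1 and DRD2, so the upper coordinate is the start of transcription. Its start was open in all 7 libraries, with an enrichment of 30.7, 20.7, 11.0 and 16.0 in stressed 6, 7, 8 and 9, and 22.4, 16.4 and 28.6 in vehicle 6, 7 and 8. The region was 1176 to 2197 bp wide in stressed libraries and 880 to 1424 bp wide in vehicle libraries. Enrichment depends on a library's contrast, so the treatments were compared by rank within the equal-size list, where 1 is the region with the highest fold. GCH1 ranked 8374, 6135.5, 20596 and 6117.5 in the stressed libraries and 12101.5, 11514 and 12152.5 in the vehicle libraries. Stressed 6, 7 and 9 ranked it above every vehicle library and stressed 8 below, so the groups overlapped (exact permutation test over 35 assignments, two-sided, p = 0.486, Benjamini-Hochberg adjusted p = 0.827 over 14055 genes). Leaving out stressed 8, the only library out of this order, necessarily removed the overlap, and no share of all genes was computed for that setting.

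Inside GCH1, a region at chr14:54870220-54871384, its middle 28785 bp above the lower end (all distances are to the middle of a region), was also in all 7 equal-size lists. Its enrichment was 18.8, 14.3, 8.58 and 12.0 in stressed 6, 7, 8 and 9, and 16.3, 13.1 and 24.4 in vehicle 6, 7 and 8. In stressed 8 this region was tied with the weakest regions of the equal-size list and kept by the order of ties. Its ranks overlapped between the treatments (exact permutation test, p = 0.971, adjusted p = 0.991 over the 14330 regions present in all 7 lists). A region 37551 bp below the lower end (chr14:54802665-54806267) was in the deposited lists of 4 stressed libraries and of vehicle 6 and vehicle 8.

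TH encodes tyrosine hydroxylase (chr11:2163929-2171815). No equal-size list held a region at either end of it. In the deposited lists its start had a region in 3 stressed libraries, with enrichments of 6.88, 5.0 and 8.58 in stressed 6, 7 and 8, and none in stressed 9 or in vehicle 6, 7 and 8. These summits were pileups of 15, 30 and 7, and their regions were 488, 423 and 290 bp wide. They ranked 71333 of 188516 regions in stressed 6, 52648.5 of 248900 in stressed 7 and 34039.5 of 55533 in stressed 8, all outside the equal-size lists. The region in stressed 8 was tied with the weakest regions of its equal-size list and left out by the order of ties. The weakest regions listed at all in vehicle 6 and vehicle 7 had enrichments of 8.13 and 8.18, so the enrichments of stressed 6 and stressed 7 lie below anything those lists hold. In vehicle 8 the weakest listed region had an enrichment of 4.19, below all 3 of these values, and the TH start was not listed.

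The equal-size lists held 2, 1, 5 and 3 distal regions (no protein-coding gene end within 1 kb) in its window in stressed 6, 7, 8 and 9, and 2, 2 and 2 in vehicle 6, 7 and 8. In stressed lists some of these were tied with the weakest regions of the equal-size list and kept by the order of ties. They lay at chr11:2120241-2121155 in stressed 6 and stressed 8, and at chr11:2178617-2179226 in stressed 9. In stressed 8 those at chr11:2190115-2190849 and chr11:2197319-2197673 were also tied. The most widely shared distal region lay at chr11:2213963-2215329, 42831 bp above the start, in 4 stressed libraries and in vehicle 6 and vehicle 8. Its enrichment was 23.4, 11.2, 11.0 and 11.3 in stressed 6, 7, 8 and 9, and 18.3 and 41.2 in those vehicle libraries. A region within the body (chr11:2165334-2166990) was in the deposited lists of 4 stressed libraries, at 9.17, 6.51, 9.81 and 6.67, and of vehicle 8 alone among vehicle libraries, at 11.9. A region 18932 bp above the start (chr11:2190115-2191379) had enrichments of 9.63, 5.50 and 8.58 in stressed 6, 7 and 8, and 20.3, 13.1 and 11.2 in vehicle 6, 7 and 8, and was not listed in stressed 9. INS and IGF2, which encode insulin and an insulin-like growth factor, share this window, so a distal region there is not assigned to TH by position alone.

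DDC encodes DOPA decarboxylase (chr7:50458442-50565405), and the promoter table holds both of its starts, 4334 bp apart. They are shown because the libraries treated them differently. Each sequence gives 250 bases before and 50 bases after the start on the minus strand, from RefSeq (GRCh38.p14), and the capitals mark motif matches.
DDC upper start, chr7:50565356-50565655: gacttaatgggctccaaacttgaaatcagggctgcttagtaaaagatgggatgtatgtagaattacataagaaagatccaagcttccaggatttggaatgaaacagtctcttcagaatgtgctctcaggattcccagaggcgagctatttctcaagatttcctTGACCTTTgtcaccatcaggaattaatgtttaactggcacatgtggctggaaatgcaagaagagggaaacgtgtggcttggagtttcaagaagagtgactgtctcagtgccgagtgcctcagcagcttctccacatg
DDC lower start, chr7:50561022-50561321: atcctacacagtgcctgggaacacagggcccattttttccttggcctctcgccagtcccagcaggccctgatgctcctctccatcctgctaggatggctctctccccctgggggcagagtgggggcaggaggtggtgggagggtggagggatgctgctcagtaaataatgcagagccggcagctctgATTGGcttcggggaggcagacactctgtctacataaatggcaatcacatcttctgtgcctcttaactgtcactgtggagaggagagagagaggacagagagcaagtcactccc

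The upper DDC promoter overlapped a region in none of the 7 deposited lists, although stressed 7 held a weak region (enrichment 3.00) within 1 kb of it. It holds 3 CG dinucleotides, a GC share of 44.3%, and the letters TGACCTTT in capitals. These are the reverse complement of AAAGGTCA, the element that the NR4A receptors bind, which 1.22% of 34961 promoters of this length hold on either strand. The lower DDC promoter overlapped a region in the deposited lists of 3 stressed and 2 vehicle libraries, and in the equal-size lists of 1 stressed and 2 vehicle libraries. The overlapping peak had an enrichment of 7.80, 6.17 and 6.67 in stressed 6, 7 and 9, and 14.2 and 14.6 in vehicle 6 and vehicle 8. In stressed 7 this peak was 1972 bp wide and its summit lay outside the promoter. Stressed 6 and vehicle 8 listed a separate region at that summit, with 8.26 and 11.9. In stressed 9 and vehicle 8 the overlapping peak was tied with the weakest regions of the equal-size list and kept by the order of ties. This promoter also holds 3 CG dinucleotides, with a GC share of 57.3%, and its capitals mark a reversed CCAAT box (34.6% of promoters). Of the 10340 promoters with 0 to 4 CG, 76.9% overlapped a region in no deposited list and 3.24% in at least 5 libraries.

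The strongest open site of DDC was inside the gene body. A region at chr7:50531179-50532479, 73387 bp above the lower end, was in all 7 equal-size lists, with an enrichment of 35.8, 23.7, 22.1 and 16.0 in stressed 6, 7, 8 and 9, and 48.8, 34.3 and 56.5 in vehicle 6, 7 and 8. It ranked 6241.5, 4518, 4744 and 6117.5 in the stressed libraries and 2418, 1738.5 and 2771 in the vehicle libraries. Every vehicle library therefore placed it above every stressed library. The mean log2 rank was 12.38 ± 0.24 in stressed and 11.15 ± 0.35 in vehicle libraries, a difference of 1.24 (SD, n = 4 and 3). The exact permutation p was 0.0286, the smallest that 35 assignments allow, and the adjusted p was 0.382 over 14330 regions. An adjusted p of 0.05 can be reached only if most regions share that smallest p, so the adjusted value decides nothing here. Of all regions present in the 7 lists, 5.53% ranked above every stressed library in every vehicle library and 7.62% the other way, and 7.48% had an unadjusted p at or below 0.05, with 0 of 14330 below it after adjustment in this exact permutation test. This is 1 of 5 such regions in the windows of the 7 genes, and it was tested by rank after its values had been seen.

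A neighbouring site in DDC at chr7:50534316-50535615 was in 6 of 7 equal-size lists, absent from vehicle 7. Its ranks of 9077.5, 9840.5, 6386.5 and 12696 in stressed libraries were all stronger than that of vehicle 6, 14184.5, and lay on both sides of that of vehicle 8, 8519.5. A region at chr7:50467776-50468611, 836 bp wide and 9751 bp above the lower end, was in the equal-size lists of 4 stressed and 0 vehicle libraries, with enrichments of 17.0, 7.67, 13.5 and 8.01 in stressed 6, 7, 8 and 9. In the deposited list of vehicle 8 the same site had an enrichment of 14.0, above stressed 7, 8 and 9, and fell outside the equal-size list whose weakest region stood at 14.6. Across the genome 0.781% of 62514 merged regions were in 4 stressed and 0 vehicle lists, and 0.37% in 0 stressed and 3 vehicle lists. Of the 42 merged regions in the windows of the 7 genes, 1 was of the first kind and 0 of the second. No merged region passed an adjusted threshold of 0.05 (Fisher's exact test), where the smallest unadjusted p is 0.0286 and 488 and 231 regions of those 2 kinds reached it. DDC held 6, 5, 5 and 6 distal regions in stressed 6, 7, 8 and 9, against 5, 2 and 4 in vehicle 6, 7 and 8 (exact permutation p = 0.0857, adjusted p = 1 over 16905 genes), and the groups overlapped at 5.

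**Figure D2:**
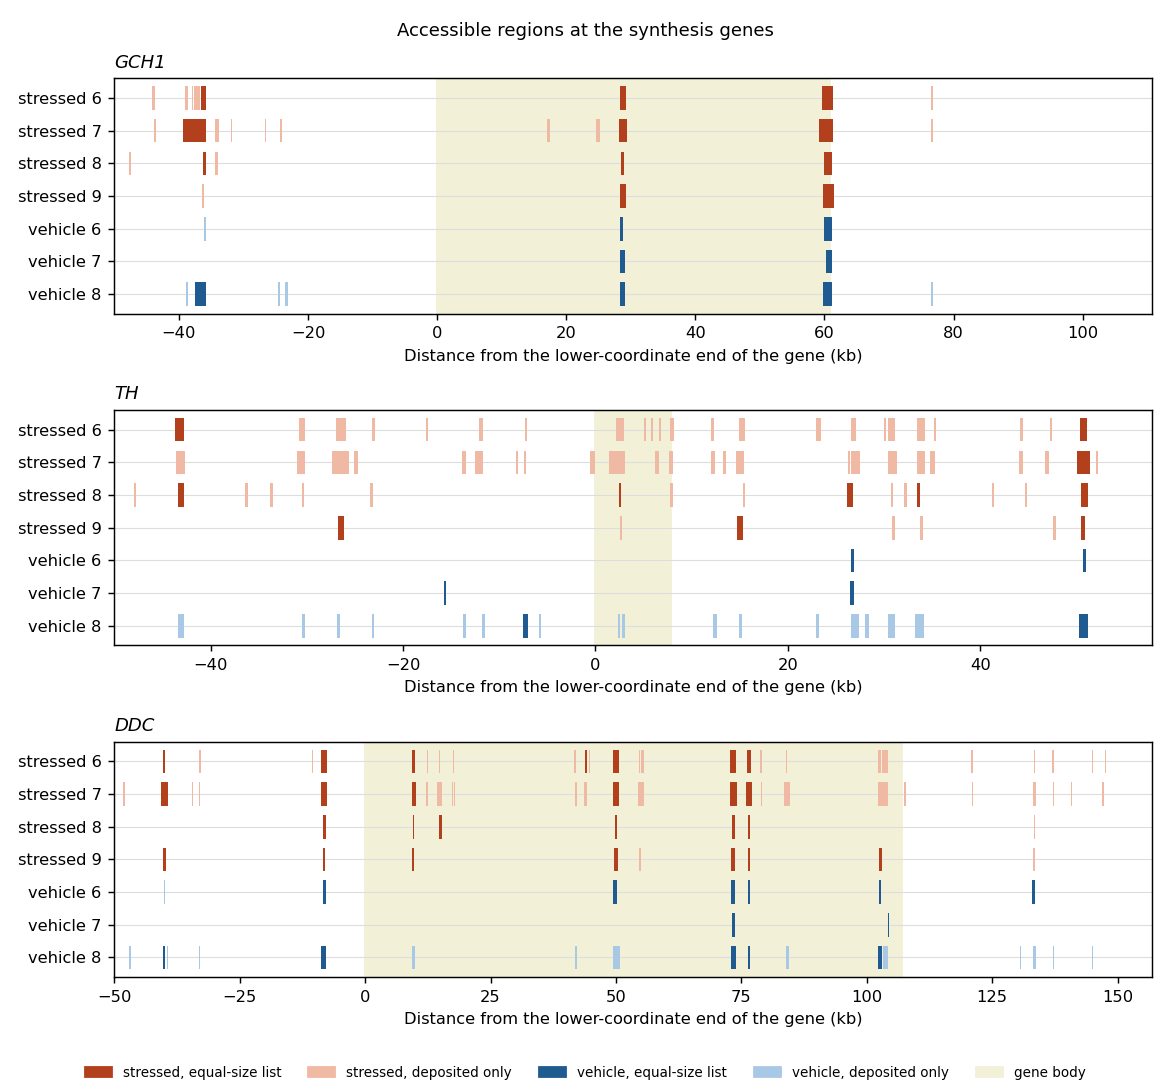
Regions in the windows of GCH1, TH and DDC, each drawn as a bar at its distance in kb from the lower gene end, with a row for each library (4 stressed above 3 vehicle) and the gene body shaded. Bars in the equal-size lists are dark and bars in the deposited lists only are pale: the GCH1 start and the DDC site 73387 bp above the lower end are dark in all 7 rows, and the TH body holds 1 dark bar, in stressed 8.

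ALDH1A1 encodes the cytosolic aldehyde dehydrogenase that oxidises the aldehyde formed from dopamine, and it marks a subset of midbrain dopaminergic neurons (chr9:72900671-72953053). Neither end of it had a region in any deposited list, and its promoter is shown as the one of the 4 tabled promoters with no listed region within 1 kb in any library.
ALDH1A1 start, chr9:72953004-72953303: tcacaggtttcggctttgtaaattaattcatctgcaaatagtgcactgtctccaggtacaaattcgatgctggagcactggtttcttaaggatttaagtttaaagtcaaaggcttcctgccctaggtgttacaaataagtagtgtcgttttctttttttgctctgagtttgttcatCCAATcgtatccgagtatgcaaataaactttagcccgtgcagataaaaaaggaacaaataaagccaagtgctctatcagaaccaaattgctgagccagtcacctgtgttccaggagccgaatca

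The ALDH1A1 promoter holds 7 CG dinucleotides and a GC share of 40.3%, against medians of 14 and 58.7% over the 34961 promoters. Of the 4876 promoters with 5 to 9 CG, 53.8% overlapped a region in no deposited list. Its capitals mark a CCAAT box at position -74 from the start. The only regions of its window in the equal-size lists lay over 40 kb below the lower end, 2 in stressed 7, 1 in vehicle 6 and 0 in the other 5 libraries. They fell at chr9:72856053-72857439, with an enrichment of 7.17 in stressed 7 and 18.3 in vehicle 6, and at chr9:72857754-72858756, with 7.17 in stressed 7. In the deposited lists the first of these was present in 3 stressed libraries and in vehicle 6 and vehicle 8. Its enrichments there were 9.17, 7.17 and 6.67 in stressed 6, 7 and 9, and 18.3 and 12.6 in those vehicle libraries. The second was present in 4 stressed libraries and in vehicle 8, at enrichments of 7.80, 7.17, 8.58 and 6.01 in stressed 6, 7, 8 and 9, and 11.2 in vehicle 8. The first in stressed 9 and the second in stressed 8 were tied at the limit. The order of ties left them out of the equal-size lists.

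SLC18A2 encodes the vesicular monoamine transporter VMAT2 and lies on the plus strand (chr10:117241114-117279430). Its start was in deposited lists only, and in stressed 9 it was tied with the weakest regions of the equal-size list and left out by the order of ties. Its promoter is shown because its CG content is high and no equal-size list held a region on it.
SLC18A2 start, chr10:117240864-117241163: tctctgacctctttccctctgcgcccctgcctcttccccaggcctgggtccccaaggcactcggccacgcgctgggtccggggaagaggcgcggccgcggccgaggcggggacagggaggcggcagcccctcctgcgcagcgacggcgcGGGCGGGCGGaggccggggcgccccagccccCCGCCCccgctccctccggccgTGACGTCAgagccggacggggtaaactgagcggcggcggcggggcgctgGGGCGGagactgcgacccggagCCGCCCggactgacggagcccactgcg

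The capitals in SLC18A2 mark a cyclic AMP response element (TGACGTCA) that begins at position -48 from the start and 5 GC boxes (GGGCGG or its reverse complement), of which those at positions -101 and -97 overlap. The response element occurs in 1.85% and the GC box in 45.0% of promoters, and dbcAMP, an analogue of cyclic AMP, was in the medium of both groups. None of the 4 promoters of the 3 matched genes held the AP-1 letters TGANTCA (7.68% of promoters), the CARE letters TGATGNAA (3.62%) or the TATA box letters TATAAA (11.5%), on either strand.

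The SLC18A2 promoter holds 40 CG dinucleotides and a GC share of 78.7%. Of the 14420 promoters with 20 or more CG, 62.3% overlapped a region in all 7 deposited lists and 13.0% in 3 or fewer, and this promoter overlapped one in 2 stressed and 1 vehicle library. Within 1 kb of the start, SLC18A2 had a region in all 4 stressed deposited lists and in vehicle 8 alone among vehicle libraries. The strongest enrichments were 7.80, 5.34, 6.13 and 6.67 in stressed 6, 7, 8 and 9, all with summits within chr10:117241283-117242017. Vehicle 8 held a region of 8.37 at that position, and its strongest, at 12.6, was a separate region before the start (chr10:117239602-117240214). A stressed 6 region overlapping the latter had 5.50, and the stressed 7 region spanned both. All 4 strongest stressed values lie below the 8.13 and 8.18 of the weakest regions listed in vehicle 6 and vehicle 7. Both vehicle 8 values are above all 4. TH, DDC and SLC18A2 thus had a gene-end region in a larger share of stressed than of vehicle deposited lists, where 35% of 16788 genes did and 5.73% had the reverse.

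The one region in the equal-size lists of the SLC18A2 window was at chr10:117216052-117217767, 24205 bp before the start. It was in 4 stressed libraries, with enrichments of 14.7, 10.5, 11.0 and 8.01 in stressed 6, 7, 8 and 9, and in vehicle 7 and vehicle 8, with 13.1 and 15.3. Its ranks of 18105.5 to 26018 in stressed libraries lay between those of vehicle 7, 17353.5, and vehicle 8, 30360.

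**Figure D3:**
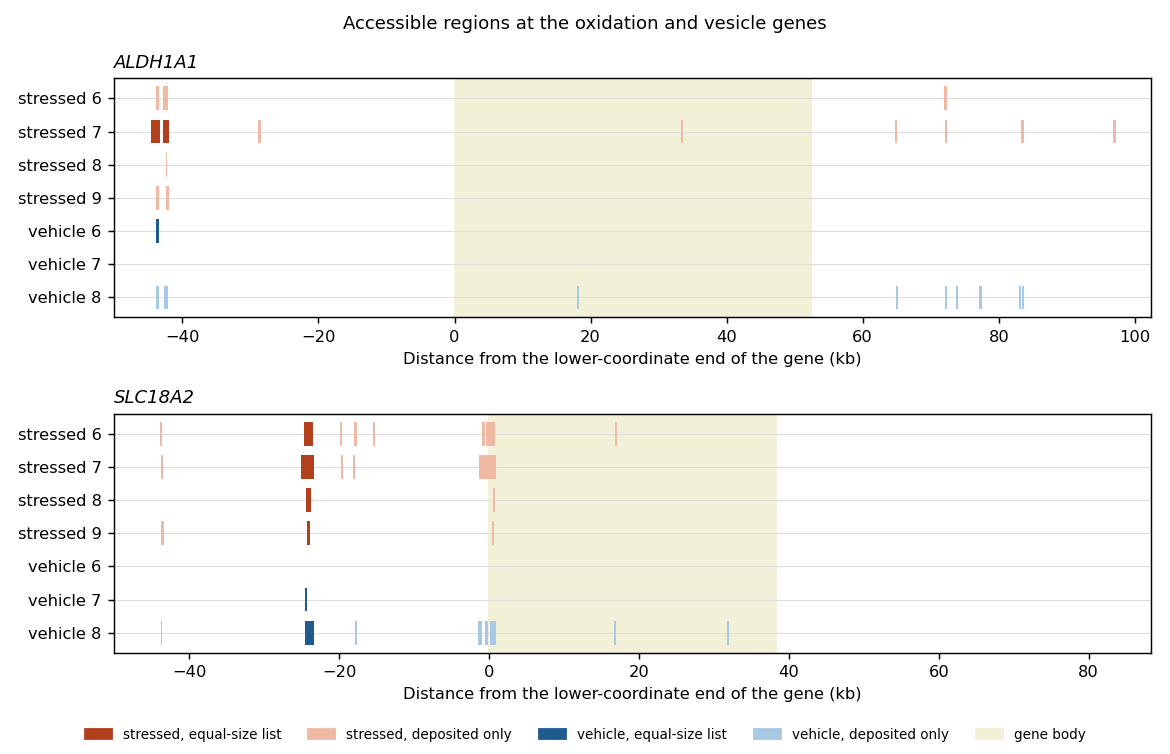
Regions in the windows of ALDH1A1 and SLC18A2, each a bar at its distance in kb from the lower gene end, with a row for each library (4 stressed above 3 vehicle) and the gene body shaded. Dark bars lie in the equal-size lists and pale bars in the deposited lists only: both gene starts lack dark bars in all 7 rows, and the SLC18A2 site 24205 bp before the start is dark in 6.

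SLC6A3 encodes the dopamine transporter DAT (chr5:1392794-1445440). Its start was listed in all 7 deposited lists, with enrichments of 14.7, 12.2, 15.9 and 7.34 in stressed 6, 7, 8 and 9, and 12.2, 9.81 and 17.4 in vehicle 6, 7 and 8. In vehicle 6 it was 238 bp wide and tied with the weakest regions of the equal-size list, outside it, so 4 stressed and 2 vehicle libraries kept it. The widths were 2518, 2702, 919 and 2614 bp in stressed 6, 7, 8 and 9, and 430 and 1454 bp in vehicle 7 and vehicle 8. The larger share of stressed lists for SLC6A3 is also found in 27.5% of genes with a gene-end region, and the reverse in 6.47%. Its ranks were 26018, 14759.5, 10105.5 and 28420 in the stressed libraries and 27312.5 and 25556.5 in vehicle 7 and vehicle 8, and overlapped (exact permutation test with vehicle 6 ranked past the end of its list, p = 0.286, adjusted p = 0.741 over 14055 genes).

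A second SLC6A3 site at chr5:1385533-1387580, 6238 bp below the lower end, was in the equal-size lists of 4 stressed libraries and of vehicle 6 and vehicle 8. Its enrichment was 16.5, 9.51, 11.0 and 9.34 in stressed 6, 7, 8 and 9, and 12.2 and 25.1 in vehicle 6 and vehicle 8. Its ranks were 22189, 20836.5, 20596 and 18323.5 in the stressed libraries, all between those of vehicle 6, 30213, and vehicle 8, 15036.5. In vehicle 6 it was tied with the weakest regions of the equal-size list and kept by the order of ties. At the lower gene end itself, vehicle 8 alone had a listed region, with an enrichment of 8.37.

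DRD2 encodes the D2 receptor, which acts both as the autoreceptor of dopaminergic neurons and as a receptor on their targets (chr11:113409605-113475398). Its start was in all 7 equal-size lists, with enrichments of 24.8, 16.5, 12.3 and 19.4 in stressed 6, 7, 8 and 9, and 16.3, 26.2 and 30.7 in vehicle 6, 7 and 8. Its ranks were 12060.5, 9207.5, 16863.5 and 3735 in the stressed libraries and 20228, 3956 and 10725.5 in the vehicle libraries. Both groups spanned most of the same range (exact permutation test, p = 0.914, adjusted p = 1 over 14055 genes). Gene-end ranks of 0 of the 3 testable dopamine genes kept the treatments apart, where 11.2% of 14055 genes did (9.65% with stressed stronger and 1.57% with vehicle stronger). No gene passed an adjusted p of 0.05 in this exact permutation test, and 769 (5.47%) had an unadjusted p at or below it. The median difference in mean log2 rank, vehicle minus stressed, was 0.41 over the 3 dopamine genes and 0.23 over all 14055, a positive value meaning a stronger rank in stressed libraries.

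A region 21879 bp above the DRD2 start (chr11:113496509-113498046) was also in all 7 equal-size lists. It had enrichments of 20.6, 13.7, 15.9 and 12.0 in stressed 6, 7, 8 and 9, and 20.3, 11.4 and 24.4 in vehicle 6, 7 and 8, and overlapping ranks (exact permutation p = 0.114, adjusted p = 0.517 over 14330 regions). Stressed 6 was the only stressed library weaker than any vehicle library there, so leaving it out necessarily removed the overlap, the remaining stressed libraries being the stronger. No share of all regions was computed for that setting. Inside the gene body, 2 sites were shared by vehicle 6 and vehicle 8. A region at chr11:113472194-113472924 was in the lists of stressed 6 and stressed 7, with enrichments of 16.1 and 8.84, and of vehicle 6 and vehicle 8, with 24.4 and 32.8. A region at chr11:113436867-113437584 was in 0 stressed equal-size lists and in those of vehicle 6 and vehicle 8, with 14.2 and 23.0. The deposited lists also held it in stressed 6 and stressed 7, with 10.6 and 5.84.

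The DRD2 window held 3 distal regions in each of the 4 stressed equal-size lists, and 5, 4 and 7 in vehicle 6, 7 and 8 (3 ± 0 against 5.33 ± 1.53). The groups did not overlap, as for 0.905% of 16905 genes in this direction and 1.83% in the other (exact permutation p = 0.0286, adjusted p = 1). No gene passed an adjusted p of 0.05 in that test, which again needs most genes to share the smallest p. An unadjusted p at or below 0.05 was found for 376 genes (2.22%). The covered length was nearly equal, at 4313 ± 1215 bp in stressed and 4280 ± 3092 bp in vehicle libraries. In vehicle 6 and vehicle 7 a narrow distal piece lay inside the wider start region of other libraries. Counted as merged regions, the numbers were 3 in each stressed library and 4, 3 and 7 in vehicle 6, 7 and 8, and the groups overlapped at 3. The treatments' distal counts overlapped for the other 6 genes and also, for DRD2, in the deposited lists, where they averaged 10.8 ± 7.27 in stressed and 9.33 ± 8.39 in vehicle libraries.

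**Figure D4:**
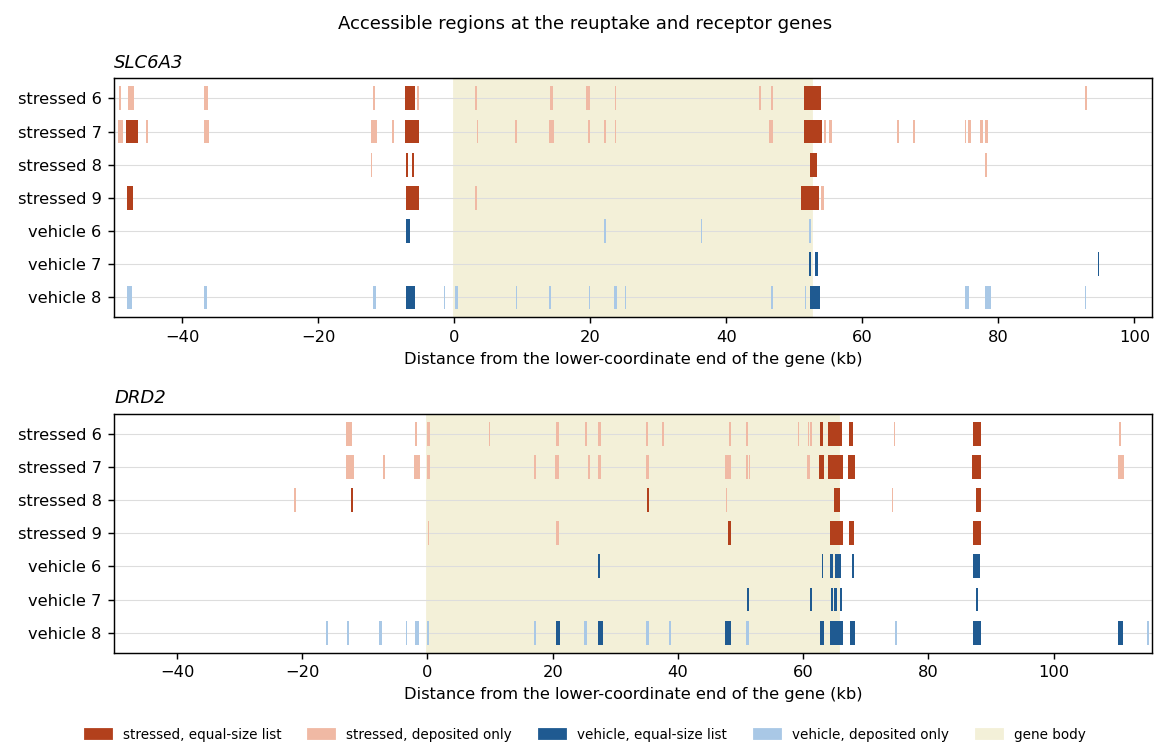
Regions in the windows of SLC6A3 and DRD2, each a bar at its distance in kb from the lower gene end, with a row for each library (4 stressed above 3 vehicle) and the gene body shaded. Dark bars lie in the equal-size lists and pale bars in the deposited lists only: the DRD2 start and the site 21879 bp above it are dark in all 7 rows.

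**Figure D5:**
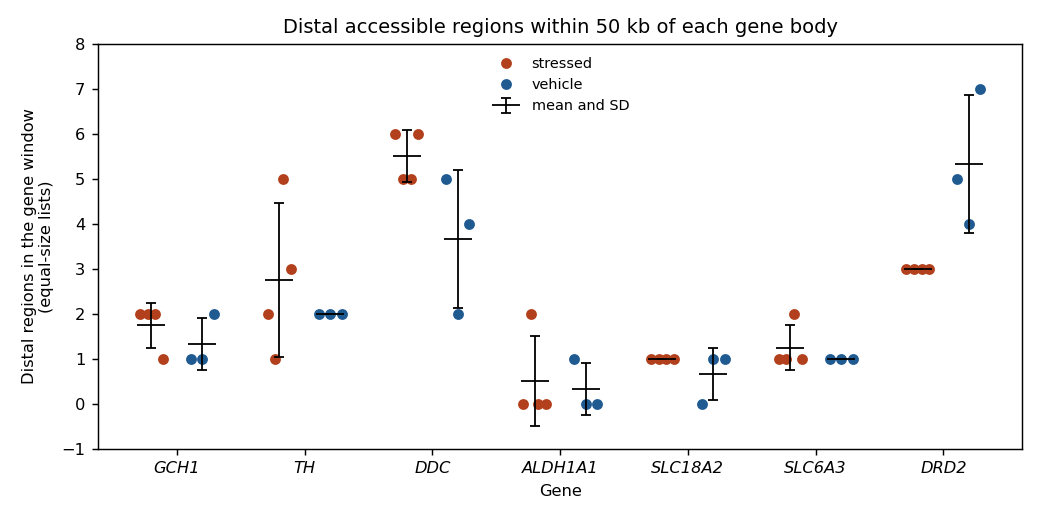
Number of distal regions in the window of each gene in the equal-size lists, with a point for each library (stressed left of vehicle) and the mean with its SD (n = 4 and 3). Only for DRD2 do the points of the groups not overlap, at 3 in every stressed library against 5, 4 and 7 in vehicle 6, 7 and 8.

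Over the 7 windows together (1084802 bp), the equal-size lists held 19, 20, 22 and 20 regions in stressed 6, 7, 8 and 9, and 18, 16 and 21 in vehicle 6, 7 and 8. They covered 20799 ± 8147 bp in stressed and 12075 ± 7739 bp in vehicle libraries, with overlapping values. The deposited lists held 102, 114, 43 and 35 regions in stressed 6, 7, 8 and 9, and 23, 16 and 97 in vehicle 6, 7 and 8, with high and low counts in both treatments. When overlapping regions were merged, the equal-size lists gave 42, of which 5 (11.9%) were in all 7 libraries and 18 (42.9%) in a single library. Among all merged regions of the genome, 22.9% were in all 7, and the share in a single library was not computed. The 5 shared regions were the start and an internal site of GCH1, the internal site of DDC, and the start and an upstream site of DRD2. The internal site of GCH1 is among them only through the order of ties in stressed 8.

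A further 20 genes of dopamine and tetrahydrobiopterin metabolism, monoamine transport and dopamine reception were counted in the same way. The equal-size lists held a gene-end region for 10 ± 0 of the 20 in stressed libraries (10 in each) and 9.67 ± 1.53 in vehicle libraries (8 to 11). The deposited lists gave 16.5 ± 4.12 in stressed and 13 ± 6.24 in vehicle libraries. In all 7 equal-size lists were 7 of them, among them PTS and SPR, which follow GTP cyclohydrolase in the synthesis of tetrahydrobiopterin, and MAOA, a monoamine oxidase. None of the 7 lists held one for 5 genes, among them GCHFR, the feedback regulator of GTP cyclohydrolase. A larger share of stressed than of vehicle lists was found for 4 genes and the reverse for 4, against 27.5% and 6.47% of all genes with a gene-end region. The reverse rested on a single library. PNMT, SLC22A3, DRD1 and DRD4 each had their only vehicle region in vehicle 7, whose equal-size list is its whole deposited list. Among the 15 genes with a region to rank, the ranks of 2 did not overlap, both stronger in stressed libraries, as for 9.65% of all genes: ALDH2, which encodes the mitochondrial aldehyde dehydrogenase, and PCBD1, which encodes an enzyme of tetrahydrobiopterin recycling. Both are named after their values were seen. ALDH2 ranked 7313.5, 9207.5, 8669 and 12696 in stressed 6, 7, 8 and 9, and 20228 and 21851 in vehicle 6 and vehicle 8, with no region in the list of vehicle 7 (exact permutation p = 0.0286, adjusted p = 0.514 over 14055 genes). PCBD1 ranked 12060.5, 11352.5, 20596 and 16116 in stressed 6, 7, 8 and 9, and 24861.5, 27312.5 and 30360 in vehicle 6, 7 and 8 (exact permutation p = 0.0571, adjusted p = 0.514).

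The genes nearest in pattern were sought by the mean absolute difference in log2 gene-end rank over the 7 libraries. Those nearest to GCH1 were MRAP2, at 0.12, and SBNO1, at 0.16. Those nearest to SLC6A3 were RPS2 and PRR5-ARHGAP8, both at 0.08, and those nearest to DRD2 were NAGK, at 0.27, and SYMPK, at 0.28.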

How the data were processed

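ATAC-seq peak lists of 7 LUHMES libraries (4 stressed, 3 vehicle) were used. Peaks were called with MACS2 for each library, per the file headers. The submitters' processing notes name the build hg38 and the tools Bowtie2, Picard and FastQC. No caller settings, Tn5 offset or read totals are given in the sources used here. Each deposited peak has a score, a fold over background (ratio), a −log10 p-value, a −log10 q-value and a summit, all the authors' values for its own library.

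Chromosomes 1 to 22 and X were kept (29 to 54 peaks per library left out) and peaks sharing a position were merged. The deposited folds gave whole pileups and a constant background in every library (tolerance 0.02), from which enrichment was computed. This background was 0.816 to 5.99 in stressed and 0.492 to 1.43 in vehicle libraries. Equal-size lists took 32828 regions by −log10 p, with 1133 to 9516 ties at the limit ordered by fold, width and position. Ranks are of the fold, averaged over ties, and a gene with no region was ranked 1 past its list.

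Gene positions and promoter sequences came from RefSeq tables (GRCh38.p14), in which 7 of 7 members had a position and 3 had a promoter. Tests were exact, two-sided permutation tests over 35 assignments (smallest p 0.0286) and Fisher's exact tests, with Benjamini-Hochberg adjustment over all genes or regions; they measure only the spread between these libraries. Fisher's exact tests ran in scipy 1.17.1 under Python 3.11.15. The permutation tests and the adjustment were written in numpy 2.4.6, and the permutation p-values were checked against scipy on simulated data. All 7 members were named, with genes nearest in rank, neighbours in a window, and examples of pathway genes open in all or no libraries. The members, the 20 pathway genes and the marker lists were chosen with earlier results of these data known, and 1 marker list is not reported here. Alternatives covered list size, ties, selection, a −log10 q of at least 5, window sizes, each library left out, and the replicate number as a block.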

Additional observations from a re-analysis of the deposited data

Results flagged for a closer look

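Among 49 groups of 4 stressed libraries, 7 had a library whose gap to its nearest neighbour made up the whole range of the group. The groups were counts of regions and of distal regions, covered length and strongest gene-end enrichment, for each gene in the deposited and equal-size lists. All 7 flagged groups were in the equal-size lists. Chance flags about 1 in 20 groups, and the counts are small whole numbers in which a single region makes such a gap. In the GCH1 window, stressed 9 had 2 regions, of which 1 was distal, fewer than the other 3 stressed libraries. In the SLC6A3 window, stressed 6 had 2 regions in all, the lowest of the stressed libraries, and stressed 8 had 2 distal regions, the highest. In the ALDH1A1 window, stressed 7 alone of the stressed libraries had any region in its equal-size list, with 2 regions, both distal (2), which covered 2390 bp.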

How the results depend on the processing

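The stressed minus vehicle difference in the number of the 7 genes with a gene-end region was 0.333 in the equal-size lists. It was 1.67 in the lists as deposited and 0.833 in deposited lists with a −log10 q of at least 5. With only the start sites of the 3 genes with a tabled promoter (DDC, SLC18A2 and ALDH1A1), it was -0.417. That setting leaves out GCH1, SLC6A3 and DRD2, the only genes counted in the 0.333, so the 2 values describe different genes. The difference in the equal-size lists ranged over 0 to 0.5 with each library left out. The count of genes whose gene-end ranks do not overlap (0) ranged over 0 to 1 with each library left out, with GCH1 added without stressed 8. Deposited lists of unequal length gave no rank comparison. The count for distal regions (1, DRD2) was 0 in the lists as deposited, in lists of 16414 regions, at a −log10 q of at least 5, with all ties at the limit kept, with a flank of 100 kb, and with merged regions counted. It ranged over 1 to 2 with each library left out, DDC joining without vehicle 6. The count of merged regions that separate the treatments (1, in DDC) was 0 in the lists as deposited, in lists of 16414 regions and at a −log10 q of at least 5. It ranged over 1 to 2, with a further DDC region without vehicle 6 and a DRD2 region without vehicle 7. The count of regions in all libraries whose ranks do not overlap (1, in DDC) ranged over 1 to 2, with a DRD2 region added without stressed 6 and the GCH1 start without stressed 8. The pathway difference of 0.333 was 3.5 in the lists as deposited and ranged over -0.5 to 1 with each library left out. The ties, merged regions and rank alternatives of the DDC site were chosen after seeing the data. In all other settings run these values stayed within the spread or within 1.5 times. The cause was not tested, except that deposited lists and limits are of unequal depth by construction.

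Same-numbered libraries did not deviate together. The correlations of their deviations in gene-end log2 rank, not of the ranks themselves, were -0.109, -0.00137 and -0.0578 for differentiations 6, 7 and 8. The deviations of stressed 6 correlated best with those of vehicle 8 (0.265). The numbers were not taken as pairs, although so few libraries cannot show whether a shared number marks a shared differentiation. With differentiations 6, 7 and 8 as a replicate block, the rank count was 1 (SLC6A3), the distal count was 2 (DDC and DRD2), and the 2 counts of DDC regions stayed at 1 each. A summit pileup of 5 to 14 in stressed and 4 to 6 in vehicle libraries was the smallest listed, which limits what starts of low enrichment such as TH and SLC18A2 can show.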

Other observations

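Of the dopaminergic transcription factors, PITX3, which is needed for midbrain dopaminergic neurons to form and survive in mice, had gene-end ranks that did not overlap between the treatments, with stressed libraries the stronger. Its ranks were 10183, 9840.5, 11856.5 and 8281 in stressed 6, 7, 8 and 9, and 16844.5, 21867 and 12152.5 in vehicle 6, 7 and 8 (exact permutation p = 0.0286, adjusted p = 0.514 over 14055 genes). It is named after its values were seen, and 9.65% of genes did the same.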
